A study of Homo sapiens with 12 samples.

Results

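The 34 genes described here code for the enzymes that build cholesterol and fatty acids and for the proteins that switch those genes on and off. They were taken as a list of symbols and matched to the Ensembl identifiers of the count files. All 34 were found among the 40649 genes of each file, and all 34 were among the 19268 genes that passed the filter on low counts. Of these, 22 make up the sterol arm (17 enzymes, STARD4, SREBF2, SCAP, INSIG1 and INSIG2) and 12 the fatty acid arm (11 enzymes and SREBF1).

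RNA-seq was run on HK-2, an immortalised human cell line of proximal tubule origin. The series holds 12 libraries in 3 groups of 4. The ShNC group had the genotype label ShNC and no peroxide. The ShNC + H2O2 group had the same genotype and received 150 µM hydrogen peroxide for 48 hours. The Yap1 knockdown + H2O2 group received the same peroxide exposure and is labelled as a knockdown of YAP1, the transcriptional coactivator of the Hippo pathway. Every group was the same cell line in the same medium with 10% fetal bovine serum, which supplies lipoprotein cholesterol and fatty acids. No knockdown group without peroxide is among the 12 libraries, so an effect of the hairpin cannot be told apart from an effect that needs peroxide. Whether the 4 libraries within a group are separate cultures is not stated, so every p-value below is set against the spread among these libraries alone, and that spread may be technical. The label for RNA extraction names kidney tissue, whereas the sample labels name the cell line.

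Cholesterol and fatty acid synthesis start from the same cytosolic acetyl-CoA. The mevalonate pathway joins acetyl units into isoprenoids, squalene and then sterols, and acetyl-CoA carboxylase and fatty acid synthase extend acetyl units into palmitate, which elongases and desaturases then modify. Genes of both routes are targets of the SREBP transcription factors, made from SREBF1 and SREBF2. SCAP escorts SREBP precursors out of the endoplasmic reticulum when membrane cholesterol is low, and the INSIG proteins hold SCAP back when it is high. SREBP-2 is known mainly for the sterol genes and SREBP-1 mainly for the fatty acid genes.

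Library totals ran from 30789997 to 46582873 counts. Mitochondrially encoded genes took 13.9% of the counts in ShNC replicate 4 and 11.3% in Yap1 knockdown + H2O2 replicate 3, against 4.54% to 5.64% in the other 10 libraries, and these 2 libraries also stood apart for several genes below. YAP1 itself ranged from 123.7 to 140.5 CPM (counts scaled to the library size) in ShNC, from 151.1 to 163.5 CPM in ShNC + H2O2 and from 110.9 to 135.9 CPM in Yap1 knockdown + H2O2. It was lower in the libraries labelled Yap1 knockdown than in ShNC + H2O2 (log2 fold change -0.29 ± 0.07 SE, adjusted p = 0.00346), and against untreated ShNC the difference was -0.05 ± 0.07 (adjusted p = 0.636). Knockdown directions below are therefore those of the libraries labelled Yap1 knockdown. Of 11 proximal tubule markers 8 averaged under 1 CPM, SLC5A12 and SLC22A8 were at 0, and the summed level, mostly PDZK1, ran from 96.9 to 158.2, 39.1 to 45.0 and 62.5 to 89.0 CPM in the 3 groups in the order above. Markers of cultured tubular epithelium summed to 2548 to 2650, 3147 to 3222 and 2534 to 2771 CPM. Fibroblast markers, mostly LUM with COL1A2 at 0, summed to 102.4 to 113.8, 245.6 to 263.8 and 132.9 to 174.6 CPM, and leukocyte markers, mostly CSF1R with PTPRC at no more than 2 counts, to 20.4 to 24.7, 15.1 to 18.8 and 28.6 to 34.6 CPM. Endothelial, adipocyte and other nephron markers stayed at or below 0.67, 1.36 and 0.79 CPM in every library. Marker sums are per library total, whereas levels of single genes and of the arms are scaled by edgeR's trimmed-mean (TMM) factors. The part of these marker differences in the results below was not tested.

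With peroxide, most fatty acid arm genes fell and the sterol arm split. A gene was called when its adjusted p was under 0.05 in edgeR's quasi-likelihood test over all genes. In ShNC + H2O2 against ShNC, 9 of the 12 fatty acid genes fell and 1 rose, against 22.6% of all genes tested called lower and 23.9% called higher (46.6% in either direction). The share lower was 75.0% in the fatty acid arm and 36.4% in the sterol arm, where 8 of 22 fell and 4 rose. The median log2 fold change was -0.52 in the fatty acid arm, -0.03 in the sterol arm and 0.004 over all genes tested. Without the 2 libraries of high mitochondrial share, 10 fatty acid genes were called lower and 2 higher, while calls over all genes rose from 8971 to 11603. With the median shift of the 50 nearest expressed genes removed, 7 fatty acid genes were called lower, with 8369 calls over all genes. With library sizes alone 8 were called lower, with 8895 calls over all genes. These are bulk samples, in which fewer cells of a kind and less RNA per cell cannot be told apart.

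Between the libraries labelled Yap1 knockdown and ShNC + H2O2, both arms were mixed. In the fatty acid arm 4 of 12 genes rose and 2 fell, and in the sterol arm 2 of 22 rose and 4 fell, against 22% of all genes tested called higher and 21% called lower (43% in either direction). The sterol shares, 9.09% higher and 18.2% lower, lie below those backgrounds. The medians were 0.06 and 0.03 on the log2 scale. Without the 2 libraries of high mitochondrial share, 6 sterol genes were called higher in place of 2. In that setting 5 fatty acid genes were lower in place of 2, and calls over all genes rose from 8288 to 11194. The call of 1 of the 2 sterol genes, MSMO1, also depended on single libraries and is described with that gene.

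Summed over its members, the fatty acid arm stood at 3288 to 3428 CPM in ShNC, 2249 to 2337 CPM in ShNC + H2O2 and 2170 to 2440 CPM in Yap1 knockdown + H2O2. Untreated ShNC lay above both peroxide groups, which overlapped. The sterol arm summed to 1211 to 1291, 1155 to 1183 and 1110 to 1185 CPM in the same order. Untreated ShNC lay above both peroxide groups there, but only on this TMM scale. Per library total the sterol sums overlapped, at 1094 to 1297, 1184 to 1224 and 1058 to 1201 CPM. The fatty acid sums stayed apart per library total, at 3048 to 3407 CPM in ShNC against 2304 to 2429 and 2195 to 2387 CPM. SCD alone made up a large share of the fatty acid sum. Without it the TMM-scaled fatty acid sums were 1748 to 1932, 1471 to 1502 and 1384 to 1496 CPM, and the untreated group still lay above the others. These sums weigh abundant genes more than rare genes.

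**Figure D1:**
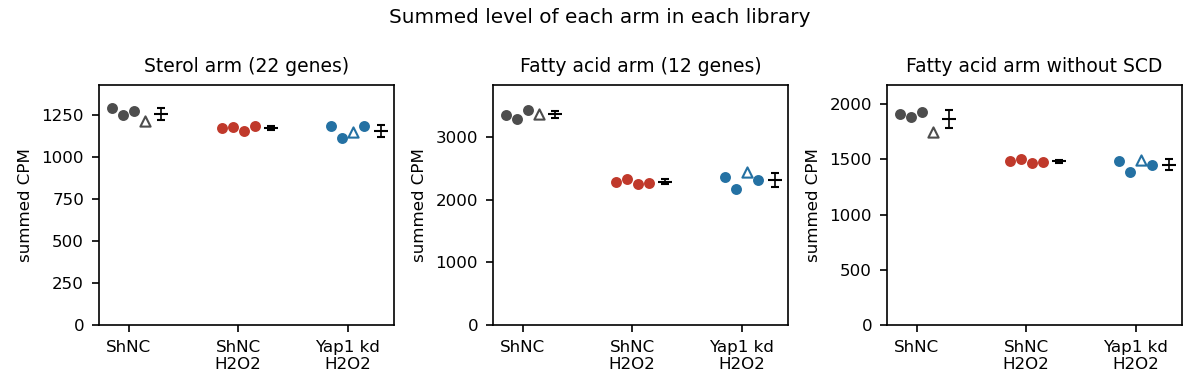
Summed CPM (TMM-scaled, y axes from 0) of the sterol arm, the fatty acid arm and the fatty acid arm without SCD in each of the 12 libraries, grouped on the x axis. Points are libraries, open triangles the 2 libraries of high mitochondrial share, and bars mean ± SD (n = 4). Untreated ShNC fatty acid sums of 3288 to 3428 CPM lie above all peroxide-treated libraries, which reach 2440 CPM.

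**Figure D2:**
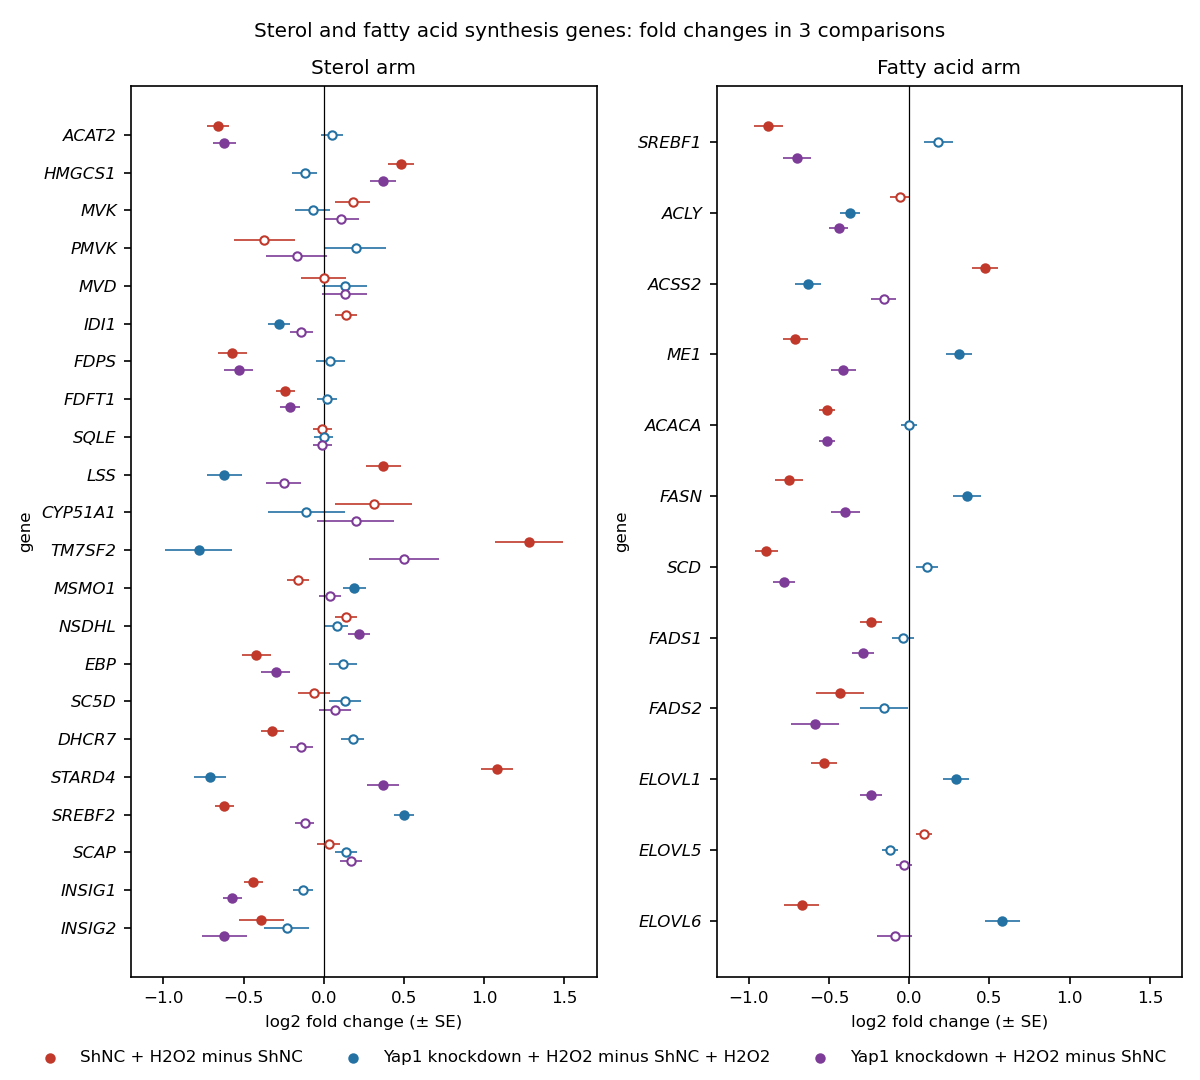
Log2 fold change ± SE (x axis) of each of the 34 genes (y axis) in the 3 comparisons. Filled points have an adjusted p under 0.05, and open points do not. Red points of the fatty acid arm lie mostly left of 0, down to -0.89 for SCD, and STARD4 (1.08) and TM7SF2 (1.28) lie farthest right in the sterol arm.

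The regulators come first. SREBF1 (chr17:17810399-17837002, minus strand, GRCh38) codes for SREBP-1. In replicates 1 to 4 it stood at 174.7, 175.7, 165.6 and 138.6 CPM in ShNC, at 87.8, 94.4, 88.2 and 85.9 CPM in ShNC + H2O2, and at 106.6, 88.9, 112.1 and 96.2 CPM in Yap1 knockdown + H2O2. Every untreated library lay above every peroxide-treated library, and the peroxide groups overlapped. SREBF1 fell with peroxide by 0.88 ± 0.09 (SE) on the log2 scale (adjusted p = 5.2e-07), and its difference between the peroxide groups was 0.18 ± 0.09 (adjusted p = 0.101). That second difference passed the threshold without ShNC replicate 4 (adjusted p = 0.0301) or without Yap1 knockdown + H2O2 replicate 2 (adjusted p = 0.0406).

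SREBF2 (chr22:41833079-41907308, plus strand), which codes for SREBP-2, fell with peroxide and rose between the peroxide groups. It stood at 168.1, 166.0, 168.6 and 155.1 CPM in ShNC, at 106.7, 106.5, 108.1 and 107.6 CPM in ShNC + H2O2, and at 150.5, 140.1, 169.1 and 146.8 CPM in Yap1 knockdown + H2O2. The H2O2-treated ShNC libraries were the lowest 4 of the 12, and the other groups overlapped. Its log2 fold change was -0.62 ± 0.06 with peroxide (adjusted p = 7.4e-07) and 0.50 ± 0.06 between the peroxide groups (adjusted p = 9.7e-06). Both comparisons share the ShNC + H2O2 libraries. Against untreated ShNC the Yap1 knockdown + H2O2 value was -0.12 ± 0.06 (adjusted p = 0.166), and -0.21 (adjusted p = 1.2e-05) without both libraries of high mitochondrial share.

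SREBF2 was the only member whose promoter window held an exact match to the 9-base core of a sterol regulatory element, a site that SREBPs bind. The windows are RefSeq sequences of GRCh38.p14 reaching from 250 bases before to 50 bases after a gene's start, 300 bases in all. In the SREBF2 window (chr22:41832855-41833154, plus strand) capitals mark that core, 133 bases before the start, and the CCAAT box, read on the other strand as ATTGG, 106 bases before it.
SREBF2: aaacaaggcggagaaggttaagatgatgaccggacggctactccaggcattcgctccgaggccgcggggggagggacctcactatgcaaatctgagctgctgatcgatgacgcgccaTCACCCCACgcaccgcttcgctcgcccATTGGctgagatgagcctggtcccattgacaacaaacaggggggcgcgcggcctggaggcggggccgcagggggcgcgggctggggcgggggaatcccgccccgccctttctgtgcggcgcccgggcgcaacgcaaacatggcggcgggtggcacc

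SCAP, the escort protein, passed no test. It stood at 59.2, 63.2, 56.6 and 54.5 CPM in ShNC, at 60.8, 62.5, 56.1 and 59.2 CPM in ShNC + H2O2, and at 62.4, 63.7, 73.9 and 63.7 CPM in Yap1 knockdown + H2O2. The highest value was that of Yap1 knockdown + H2O2 replicate 3, a library of high mitochondrial share. The log2 differences were 0.03 ± 0.07 with peroxide (adjusted p = 0.749) and 0.14 ± 0.07 between the peroxide groups (adjusted p = 0.118).

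INSIG1, which retains SCAP and is itself an SREBP target, fell with peroxide and stood lowest in the libraries labelled Yap1 knockdown. It stood at 140.5, 129.8, 139.6 and 142.1 CPM in ShNC, at 100.1, 101.3, 104.0 and 100.3 CPM in ShNC + H2O2, and at 98.3, 88.9, 87.6 and 96.1 CPM in Yap1 knockdown + H2O2. The 3 groups did not overlap. The log2 fold change with peroxide was -0.44 ± 0.06 (adjusted p = 1.1e-05). Between the peroxide groups it was -0.13 ± 0.06 (adjusted p = 0.0821), which passed without ShNC replicate 4 (adjusted p = 0.0409). With the shift of the neighbouring genes removed, that second value was -0.07 (adjusted p = 0.424).

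INSIG2, its paralogue, is the least firm call among the regulators. It stood at 33.7, 31.9, 34.6 and 28.1 CPM in ShNC, at 24.6, 22.7, 24.9 and 25.8 CPM in ShNC + H2O2, and at 21.7, 24.1, 13.6 and 24.2 CPM in Yap1 knockdown + H2O2. Untreated libraries were all above the treated libraries. The fall with peroxide was -0.39 ± 0.14 (adjusted p = 0.033). It lost its call in 9 of 21 alternative analyses, with adjusted p from 0.0512 to 0.142, among them leaving out ShNC replicate 1, 2 or 3 or any ShNC + H2O2 library. Between the peroxide groups the value was -0.23 ± 0.14 (adjusted p = 0.211).

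The INSIG1 window is shown because the gene, a known SREBP target, fell with peroxide and its window holds 2 of the motifs searched. It lies at chr7:155297628-155297927 on the plus strand, and capitals mark a CCAAT box on the other strand 170 bases before the start and an E-box, CACGTG, 55 bases before it.
INSIG1: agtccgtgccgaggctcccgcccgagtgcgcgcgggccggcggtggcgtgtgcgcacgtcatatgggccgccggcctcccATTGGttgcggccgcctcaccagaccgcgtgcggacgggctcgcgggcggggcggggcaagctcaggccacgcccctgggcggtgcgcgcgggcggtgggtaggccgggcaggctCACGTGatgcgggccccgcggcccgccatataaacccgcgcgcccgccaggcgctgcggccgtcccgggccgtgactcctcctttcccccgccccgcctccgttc

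Of the 5 regulators together, SREBF1, SREBF2, INSIG1 and INSIG2 fell with peroxide and SCAP was not called. The share lower was 80%, against 22.6% of all genes tested, and the INSIG2 call was lost in 9 of 21 alternatives. SREBF2 was the only regulator called between the peroxide groups (20%, against 43% of all genes tested).

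STARD4, a soluble carrier that moves cholesterol between membranes, changed more than any other sterol arm gene with a mean of at least 5 CPM, and its direction with peroxide was the reverse of that of the SREBF genes. It stood at 51.8, 49.9, 49.5 and 49.4 CPM in ShNC, at 107.2, 99.4, 102.6 and 115.1 CPM in ShNC + H2O2, and at 72.2, 66.6, 48.6 and 71.6 CPM in Yap1 knockdown + H2O2. The H2O2-treated ShNC libraries were the highest 4, and the lowest of all was Yap1 knockdown + H2O2 replicate 3. STARD4 rose 2.12-fold with peroxide (log2 1.08 ± 0.10, adjusted p = 3.3e-07) and fell by 0.71 ± 0.10 between the peroxide groups (adjusted p = 3.3e-05). Its promoter window (chr5:111512486-111512785, minus strand) is printed for comparison with SREBF2: it held no sterol regulatory element core and 2 CCAAT boxes, in capitals, 161 and 130 bases before the start.
STARD4: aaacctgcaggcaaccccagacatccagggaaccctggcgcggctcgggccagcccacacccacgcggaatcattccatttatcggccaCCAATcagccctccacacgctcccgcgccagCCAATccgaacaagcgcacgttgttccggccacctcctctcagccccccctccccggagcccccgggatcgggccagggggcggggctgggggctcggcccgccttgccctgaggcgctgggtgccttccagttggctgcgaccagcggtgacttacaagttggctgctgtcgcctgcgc

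The early enzymes of the mevalonate route went in different directions. ACAT2, the cytosolic thiolase that joins acetyl-CoA units, stood at 76.8, 74.8, 76.3 and 66.2 CPM in ShNC, at 45.6, 45.2, 49.0 and 45.7 CPM in ShNC + H2O2, and at 49.3, 48.5, 44.0 and 49.6 CPM in Yap1 knockdown + H2O2. Untreated libraries lay above all others. ACAT2 fell with peroxide by 0.66 ± 0.07 (adjusted p = 7.4e-07) and differed by 0.05 ± 0.07 between the peroxide groups (adjusted p = 0.622). Its exons overlap SOD2-OT1 on the other strand over 52.3% of their length, and the use of strand in counting is not given in the sources used here, so reads of the 2 genes may not be told apart.

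HMGCS1, the next enzyme, rose where ACAT2 fell. It stood at 64.4, 55.9, 54.2 and 53.6 CPM in ShNC, at 80.0, 81.1, 79.4 and 78.7 CPM in ShNC + H2O2, and at 79.6, 61.8, 71.9 and 81.1 CPM in Yap1 knockdown + H2O2. The untreated and the H2O2-treated ShNC libraries did not overlap. The rise was 0.48 ± 0.08 (adjusted p = 0.000201), and between the peroxide groups the difference was -0.12 ± 0.08 (adjusted p = 0.289). An unnamed gene on the other strand overlaps 15% of its exon length.

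MVK, PMVK and MVD, the kinases and the decarboxylase that follow in the mevalonate route, passed neither of these tests. MVK ranged from 10.7 to 16.7 CPM over the 12 libraries, PMVK from 10.6 to 22.1 CPM and MVD from 15.6 to 27.2 CPM, and in each the lowest library was ShNC replicate 4. Their log2 differences with peroxide were 0.18 ± 0.11 for MVK, -0.37 ± 0.19 for PMVK and 0.00 ± 0.14 for MVD. Without ShNC replicate 4, PMVK was called lower at -0.57 (adjusted p = 0.00077). PMVK lies on a stretch of chromosome 1 where the 50 nearest expressed genes shifted by a median of -0.67 in this comparison. With that shift removed the PMVK difference was 0.30 (adjusted p = 0.252).

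IDI1, the isomerase that prepares isoprenoid units for chain building, fell between the peroxide groups. It stood at 56.2, 53.4, 57.7 and 50.9 CPM in ShNC, at 57.8, 61.6, 58.3 and 62.7 CPM in ShNC + H2O2, and at 53.5, 46.9, 44.6 and 52.5 CPM in Yap1 knockdown + H2O2. Each ShNC + H2O2 library lay above every library of both other groups. The value was 0.14 ± 0.07 with peroxide (adjusted p = 0.122) and -0.28 ± 0.07 between the peroxide groups (adjusted p = 0.00458). The antisense gene IDI2-AS1 overlaps 14.8% of its exon length.

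FDPS, which makes farnesyl diphosphate, was lower in both peroxide groups, and so were its chromosome neighbours in ShNC + H2O2. It stood at 51.9, 51.9, 50.8 and 38.8 CPM in ShNC, at 32.9, 33.7, 31.1 and 32.6 CPM in ShNC + H2O2, and at 36.3, 32.2, 30.3 and 35.5 CPM in Yap1 knockdown + H2O2. Every untreated library lay above the rest. FDPS fell with peroxide by 0.57 ± 0.09 on the log2 scale (adjusted p = 0.000109), and the 50 nearest expressed genes on chromosome 1 shifted by a median of -0.61. With that shift removed, the FDPS difference was 0.04 (adjusted p = 0.763). Between the peroxide groups FDPS differed by 0.04 ± 0.09 (adjusted p = 0.737) while its neighbours shifted by 0.55, and with that shift removed the difference was -0.50 (adjusted p = 0.000607). RUSC1-AS1 overlaps 18.6% of its exons on the other strand.

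FDFT1 and SQLE, which make and oxidise squalene, moved little. FDFT1 ranged from 101.5 to 109.2 CPM in ShNC, from 87.2 to 92.2 CPM in ShNC + H2O2 and from 84.1 to 97.3 CPM in Yap1 knockdown + H2O2, and fell with peroxide by 0.24 ± 0.06 on the log2 scale (adjusted p = 0.00293). SQLE, often named as a rate-limiting step, ranged from 82.5 to 96.3 CPM over all libraries, with differences of -0.01 ± 0.06 and -0.00 ± 0.06 in these comparisons (adjusted p = 0.896 and 0.988). With the neighbours' shift removed, SQLE was called lower between the peroxide groups (-0.20, adjusted p = 0.0121). The SQLE groups overlapped in every comparison.

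LSS, which closes oxidosqualene into the sterol ring system, rose with peroxide and was lower in the libraries labelled Yap1 knockdown, as were its neighbours on chromosome 21. It stood at 69.4, 66.7, 69.3 and 47.0 CPM in ShNC, at 84.6, 81.1, 81.1 and 78.6 CPM in ShNC + H2O2, and at 52.6, 58.6, 45.3 and 55.9 CPM in Yap1 knockdown + H2O2. The H2O2-treated ShNC libraries lay above all others. The differences were 0.37 ± 0.11 (adjusted p = 0.0117) and -0.62 ± 0.11 (adjusted p = 0.000302), while the 50 nearest expressed genes shifted by 0.45 and -0.54. With those shifts removed, LSS differed by -0.07 (adjusted p = 0.509) and -0.08 (adjusted p = 0.46).

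Of the enzymes that trim and reduce the sterol rings, TM7SF2, a sterol reductase, had the largest rise, at the lowest level of any called sterol gene. It was named after its values were seen, since its mean lay below 5 CPM. It stood at 3.21, 3.09, 3.55 and 2.12 CPM in ShNC, at 6.81, 7.80, 7.51 and 6.91 CPM in ShNC + H2O2, and at 4.60, 2.81, 6.26 and 3.32 CPM in Yap1 knockdown + H2O2. All 4 H2O2-treated ShNC libraries lay above the other 8. The differences were 1.28 ± 0.21 with peroxide (adjusted p = 0.000137) and -0.78 ± 0.21 between the peroxide groups (adjusted p = 0.00696).

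EBP, a sterol isomerase, stood at 28.6, 27.8, 29.4 and 26.9 CPM in ShNC, at 19.3, 23.3, 20.9 and 20.9 CPM in ShNC + H2O2, and at 22, 20.1, 26.8 and 22.6 CPM in Yap1 knockdown + H2O2. All 4 untreated libraries lay above the treated libraries. EBP fell with peroxide (-0.42 ± 0.09, adjusted p = 0.00121), and between the peroxide groups it differed by 0.12 ± 0.09 (adjusted p = 0.32). DHCR7, the last reductase of one branch, also fell with peroxide (-0.32 ± 0.07, adjusted p = 0.00177). Its value between the peroxide groups was 0.18 ± 0.07 (adjusted p = 0.0566), which passed without ShNC replicate 4 (0.0304) or without Yap1 knockdown + H2O2 replicate 2 (0.0346) or 4 (0.0478).

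MSMO1, a methyl sterol oxidase, stood at 94.3, 83.0, 89.7 and 104.1 CPM in ShNC, at 82.4, 81.7, 81.1 and 87.9 CPM in ShNC + H2O2, and at 97.1, 92.3, 89.0 and 102.9 CPM in Yap1 knockdown + H2O2. The lowest knockdown-labelled library lay just above the highest H2O2-treated ShNC library. MSMO1 rose between the peroxide groups (0.19 ± 0.07, adjusted p = 0.0417), but lost its call in 11 of 21 alternatives, among them leaving out ShNC replicate 1 or 3, ShNC + H2O2 replicate 1, 2 or 3, or Yap1 knockdown + H2O2 replicate 1, 2 or 4 (adjusted p from 0.0521 to 0.13). With its neighbours' shift removed the value was 0.05 (adjusted p = 0.596). With peroxide it differed by -0.16 ± 0.07 (adjusted p = 0.0931), and without ShNC replicate 2 by -0.21 (adjusted p = 0.0309).

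CYP51A1, NSDHL and SC5D were not called in these 2 comparisons. CYP51A1 was at 1.32 to 3.27 CPM over the 12 libraries, and 83.2% of its exon length overlaps another annotated gene on the same strand, so its counts are uncertain. NSDHL, a sterol dehydrogenase, ranged from 30.9 to 31.9 CPM in ShNC, from 32.2 to 36.0 CPM in ShNC + H2O2 and from 34.5 to 41.1 CPM in Yap1 knockdown + H2O2. SC5D, a sterol desaturase, ranged from 33.6 to 48.6 CPM in ShNC, with ShNC replicate 4 highest, from 35.3 to 36.7 CPM in ShNC + H2O2 and from 37.9 to 41.3 CPM in Yap1 knockdown + H2O2. Their differences with peroxide were 0.31 ± 0.24, 0.14 ± 0.07 and -0.06 ± 0.10 on the log2 scale. NSDHL passed with peroxide without Yap1 knockdown + H2O2 replicate 3 (adjusted p = 0.0415), and SC5D between the peroxide groups without ShNC replicate 4 (adjusted p = 0.0421).

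**Figure D3:**
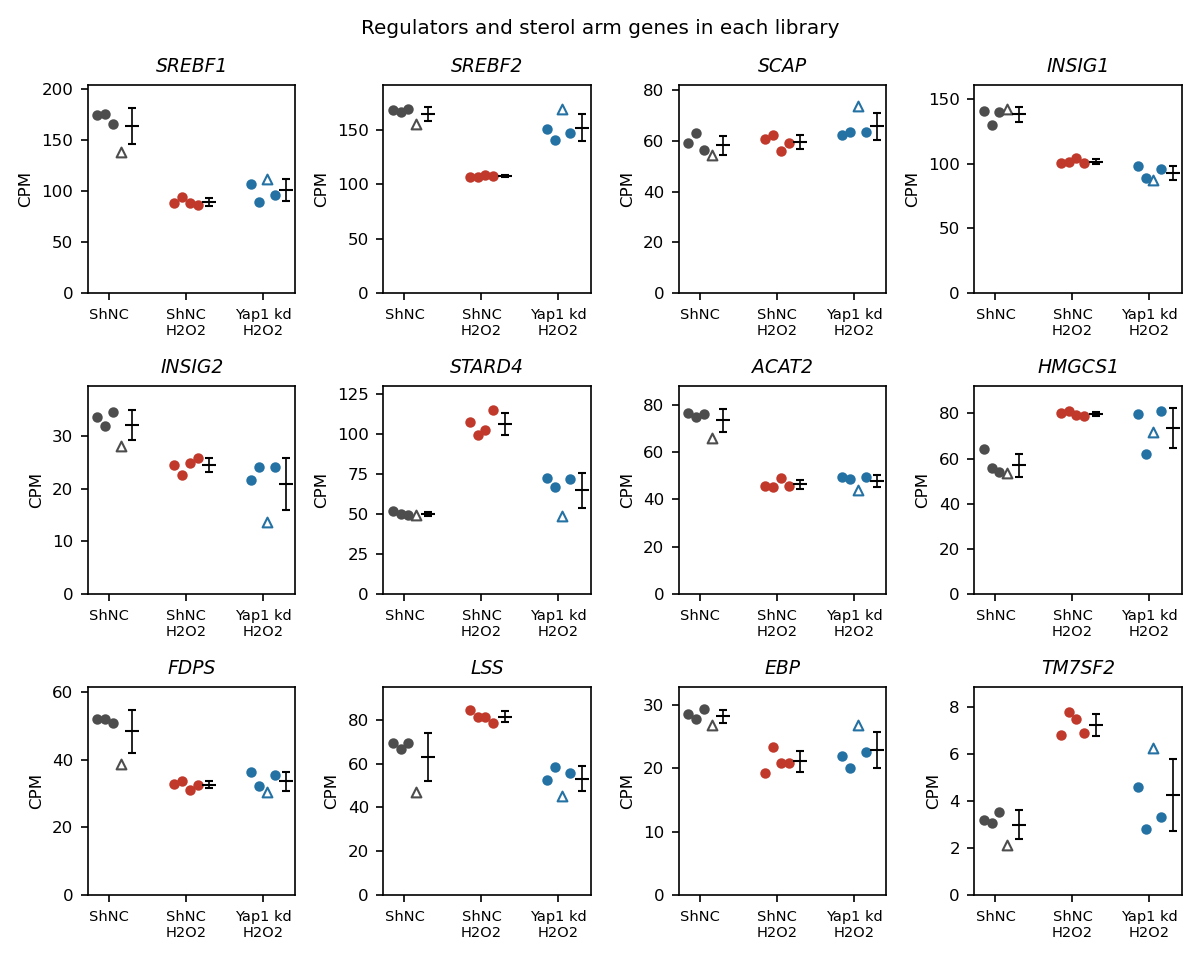
CPM (TMM-scaled, y axes from 0) of SREBF1, the other regulators and the sterol arm genes with the largest changes, in each library of the 3 groups (Yap1 kd, Yap1 knockdown). Points are libraries, open triangles the 2 libraries of high mitochondrial share, and bars mean ± SD (n = 4). SREBF2 is lowest and STARD4 highest in the H2O2-treated ShNC libraries, and INSIG1 is highest in untreated ShNC.

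The fatty acid arm had a more uniform direction with peroxide. SCD, the desaturase that makes oleate from stearate, was the most abundant member and had the largest fall. It stood at 1439.2, 1404.0, 1496.7 and 1627.4 CPM in ShNC, at 802.0, 835.2, 777.3 and 794.9 CPM in ShNC + H2O2, and at 868.6, 787.0, 943.5 and 867.9 CPM in Yap1 knockdown + H2O2. All untreated libraries lay far above the treated libraries, and the peroxide groups overlapped. SCD fell by 46.2% (log2 -0.89 ± 0.07, adjusted p = 2.7e-08), and the difference between the peroxide groups was 0.11 ± 0.07 (adjusted p = 0.197). The SCD window (chr10:100346983-100347282, plus strand) stands for the fatty acid arm, none of whose windows held a sterol regulatory element core, and has CCAAT boxes, in capitals, 229 and 186 bases before the start.
SCD: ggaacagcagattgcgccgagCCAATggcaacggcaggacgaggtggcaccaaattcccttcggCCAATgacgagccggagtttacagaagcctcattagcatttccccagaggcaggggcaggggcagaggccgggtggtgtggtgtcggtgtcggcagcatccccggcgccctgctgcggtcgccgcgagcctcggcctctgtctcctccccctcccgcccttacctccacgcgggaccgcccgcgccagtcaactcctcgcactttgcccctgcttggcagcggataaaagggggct

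FASN, fatty acid synthase, fell with peroxide and rose between the peroxide groups. It stood at 438.4, 439.8, 434.0 and 320.4 CPM in ShNC, at 242.6, 252.4, 235.6 and 237.7 CPM in ShNC + H2O2, and at 325.3, 286.3, 327.0 and 301.9 CPM in Yap1 knockdown + H2O2. The ShNC + H2O2 libraries were the lowest 4, and ShNC replicate 4 fell inside the range of the knockdown-labelled libraries. The differences were -0.75 ± 0.09 (adjusted p = 4.2e-06) and 0.36 ± 0.09 (adjusted p = 0.00407). ACACA, the acetyl-CoA carboxylase that supplies FASN with malonyl-CoA, was called in the first of these comparisons only. It stood at 196.3, 197.7, 213.0 and 197.7 CPM in ShNC, at 145.6, 142.5, 139.7 and 138.1 CPM in ShNC + H2O2, and at 142.1, 143.2, 138.0 and 142.5 CPM in Yap1 knockdown + H2O2. Both peroxide groups had nearly the same values. ACACA fell with peroxide (-0.51 ± 0.05, adjusted p = 7.6e-07) and differed by -0.00 ± 0.05 between the peroxide groups (adjusted p = 0.997).

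The enzymes that supply acetyl-CoA and NADPH took 3 different courses. ACLY, which makes cytosolic acetyl-CoA from citrate, stood at 443.6, 435.1, 465.0 and 389.0 CPM in ShNC, at 417.9, 421.1, 400.8 and 417.4 CPM in ShNC + H2O2, and at 332.1, 314.0, 318.6 and 313.7 CPM in Yap1 knockdown + H2O2. Only the knockdown-labelled libraries were apart, below the other 8. Its difference was -0.06 ± 0.06 with peroxide (adjusted p = 0.399; -0.12 and 0.0364 without ShNC replicate 4) and -0.37 ± 0.06 between the peroxide groups (adjusted p = 0.000103).

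ACSS2, which makes acetyl-CoA from acetate, was the only fatty acid arm gene called higher with peroxide. It stood at 40.5, 40.8, 41.4 and 41.3 CPM in ShNC, at 54.5, 58.1, 60.6 and 54.5 CPM in ShNC + H2O2, and at 35.8, 32.6, 42.3 and 36.0 CPM in Yap1 knockdown + H2O2. Its highest 4 values were those of ShNC + H2O2. ACSS2 rose by 0.47 ± 0.08 (adjusted p = 9.2e-05) and fell by 0.63 ± 0.08 between the peroxide groups (adjusted p = 6.9e-06).

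ME1, the cytosolic malic enzyme that makes NADPH, stood at 72.9, 65.0, 69.3 and 78.5 CPM in ShNC, at 41.9, 41.2, 45.3 and 45.6 CPM in ShNC + H2O2, and at 55.8, 55.8, 47.2 and 56.3 CPM in Yap1 knockdown + H2O2. The 3 groups did not overlap, with the knockdown-labelled libraries between the other groups. ME1 fell with peroxide (-0.71 ± 0.08, adjusted p = 1.6e-06) and rose between the peroxide groups (0.31 ± 0.08, adjusted p = 0.00448).

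Of the elongases, ELOVL6, which extends palmitate to stearate, had the largest rise of the fatty acid arm between the peroxide groups. It stood at 27.1, 23.9, 21.9 and 29.9 CPM in ShNC, at 15.8, 16.1, 15.7 and 16.8 CPM in ShNC + H2O2, and at 23.6, 20.7, 29.2 and 23.1 CPM in Yap1 knockdown + H2O2. The H2O2-treated ShNC libraries were the lowest 4 and the other groups overlapped. The differences were -0.67 ± 0.11 (adjusted p = 0.000121) and 0.58 ± 0.11 (adjusted p = 0.000522).

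ELOVL1, which extends very-long-chain saturated and monounsaturated acyl chains, stood at 85.0, 87.0, 92.8 and 98.5 CPM in ShNC, at 60.3, 63.3, 64.6 and 62.8 CPM in ShNC + H2O2, and at 70.7, 71.2, 88.1 and 76.7 CPM in Yap1 knockdown + H2O2. Again ShNC + H2O2 held the lowest 4 values. It fell by 0.53 ± 0.08 on the log2 scale with peroxide (adjusted p = 2.7e-05) and rose by 0.29 ± 0.08 between the peroxide groups (adjusted p = 0.00571). Its nearest expressed genes shifted by -0.25 and 0.22, and with those shifts removed the differences were -0.29 and 0.06 (adjusted p = 0.555 for the latter). ELOVL5, which extends polyunsaturated chains, ranged only from 213.7 to 255.5 CPM over all libraries, with differences of 0.09 ± 0.05 (adjusted p = 0.19) and -0.12 ± 0.05 (adjusted p = 0.0771, or 0.032 without ShNC replicate 4). With the neighbours' shift removed the latter was -0.02 (adjusted p = 0.834).

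FADS1 and FADS2, neighbouring desaturases of polyunsaturated fatty acids, both fell with peroxide by less than SCD. FADS1 ranged from 172.2 to 192.2 CPM in ShNC, from 149.7 to 154.2 CPM in ShNC + H2O2 and from 131.1 to 164.6 CPM in Yap1 knockdown + H2O2. Its difference was -0.24 ± 0.07 (adjusted p = 0.00671), and -0.12 (adjusted p = 0.192) with the neighbours' shift removed. FADS2 ranged from 14.8 to 17 CPM in ShNC, from 11 to 12.8 CPM in ShNC + H2O2 and from 8.75 to 15.6 CPM in Yap1 knockdown + H2O2, the highest of which was replicate 3. The FADS2 difference with peroxide was -0.43 ± 0.15 (adjusted p = 0.0304), and it lost its call in 6 of 21 alternatives, among them leaving out ShNC replicate 3 (0.0655) or 4 (0.0584) or ShNC + H2O2 replicate 2 (0.0818) or 3 (0.0823). With the neighbours' shift removed the FADS2 difference with peroxide was -0.31 (adjusted p = 0.105). Between the peroxide groups FADS2 differed by -0.16 ± 0.15 (adjusted p = 0.427), and by -0.40 (adjusted p = 0.00207) without Yap1 knockdown + H2O2 replicate 3.

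**Figure D4:**
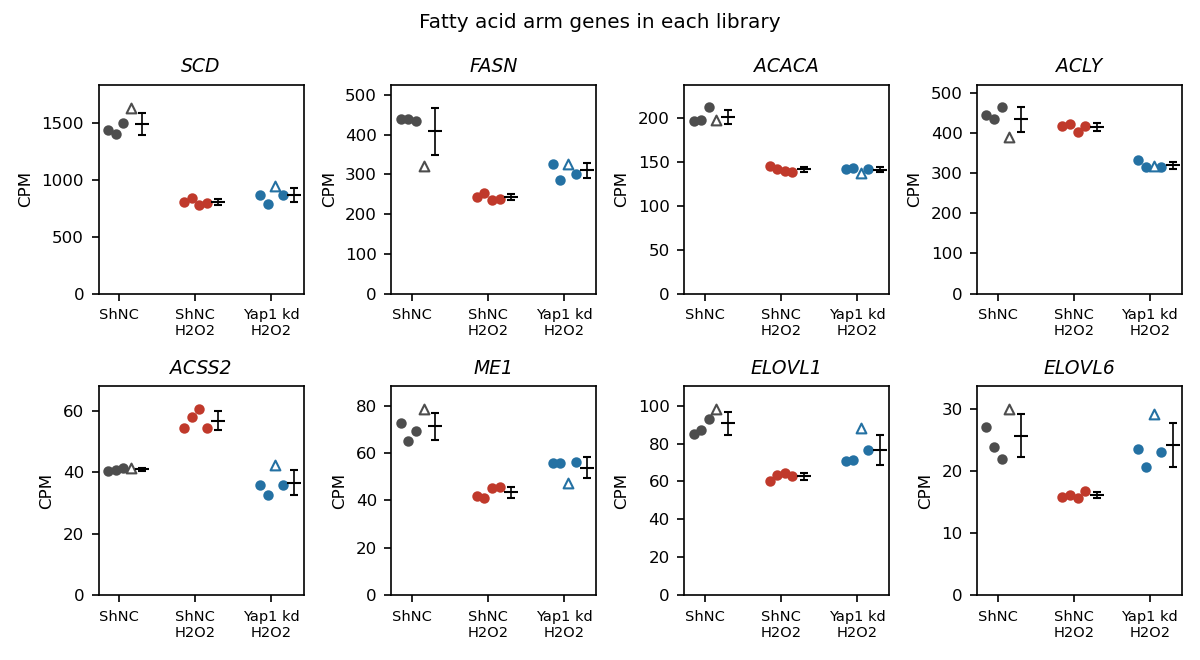
CPM (TMM-scaled, y axes from 0) of 8 fatty acid arm genes in each library of the 3 groups (Yap1 kd, Yap1 knockdown). Points are libraries, open triangles the 2 libraries of high mitochondrial share, and bars mean ± SD (n = 4). SCD and ACACA are low in both peroxide groups, ELOVL6 and FASN are lowest in ShNC + H2O2, and ACLY is lowest in Yap1 knockdown + H2O2.

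Compared with untreated ShNC, the libraries labelled Yap1 knockdown + H2O2 had lower levels of most fatty acid genes. Of 12 fatty acid genes 9 were lower and 0 higher, against 15.1% of all genes tested called lower and 17.4% called higher (32.5% in either direction), and the median was -0.41 against 0.002 over all genes. Also in each of the 21 alternatives, DESeq2 among them, 0 members of the arm were called higher. In edgeR's test over all 12 libraries the largest log2 value of any member of the arm was -0.03, that of ELOVL5. SREBF1 (-0.70 ± 0.09, adjusted p = 1.5e-05), SCD (-0.78 ± 0.07, adjusted p = 3.9e-07), ACACA (-0.51 ± 0.05, adjusted p = 2.1e-06) and ACLY (-0.44 ± 0.06, adjusted p = 4.0e-05) were among the 9. The ELOVL6 difference was -0.09 ± 0.11 (adjusted p = 0.575).

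In the sterol arm 6 of 22 genes were lower than in untreated ShNC and 3 higher. These shares, 27.3% and 13.6%, stand against 15.1% and 17.4% of all genes tested. INSIG1 (-0.57 ± 0.06), INSIG2 (-0.62 ± 0.14), ACAT2 (-0.62 ± 0.07), FDPS (-0.53 ± 0.09), FDFT1 (-0.21 ± 0.06) and EBP (-0.30 ± 0.09) were the 6, and STARD4 (0.37 ± 0.10), HMGCS1 (0.37 ± 0.08) and NSDHL (0.22 ± 0.07) the 3. The number called lower was 10 without ShNC replicate 4, with LSS (-0.37, adjusted p = 0.000626), PMVK (0.0215), IDI1 (0.044) and SREBF2 (0.0471) added. With each library left out in turn, calls over all genes in this comparison ranged from 5346 to 7298. Without both libraries of high mitochondrial share 11 sterol genes were lower and 5 higher, while calls over all genes rose from 6265 to 9146. Leaving out Yap1 knockdown + H2O2 replicate 1 (adjusted p = 0.053) or 2 (0.0639) ended the call of EBP, and leaving out ShNC replicate 1 (0.0642) or 2 (0.0716) that of NSDHL. For ELOVL1 of the fatty acid arm (-0.24 ± 0.07) leaving out ShNC replicate 3 (0.0517) or Yap1 knockdown + H2O2 replicate 1 (0.0737) or 2 (0.0696) did the same. Calls appeared without Yap1 knockdown + H2O2 replicate 3 for SREBF2 (0.0127), DHCR7 (0.0176) and ACSS2 (0.00735), all lower, without replicate 2 for TM7SF2 (0.0278), higher, and without ShNC replicate 4 for SC5D (0.00537), higher.

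Levels can be set side by side between genes only per length. Over all 12 libraries SCD stood at 196.5 CPM per kilobase of exon, ACLY at 74.6, ELOVL5 at 63.1 and FASN at 34.2 CPM per kilobase. The highest sterol arm genes on that scale were MSMO1 at 31.3 and INSIG1 at 30.3 CPM per kilobase, and the lowest was CYP51A1 at 0.70. Exon length here is that of all annotated exons of a gene together, which understates genes with long, little-used exons.

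**Figure D5:**
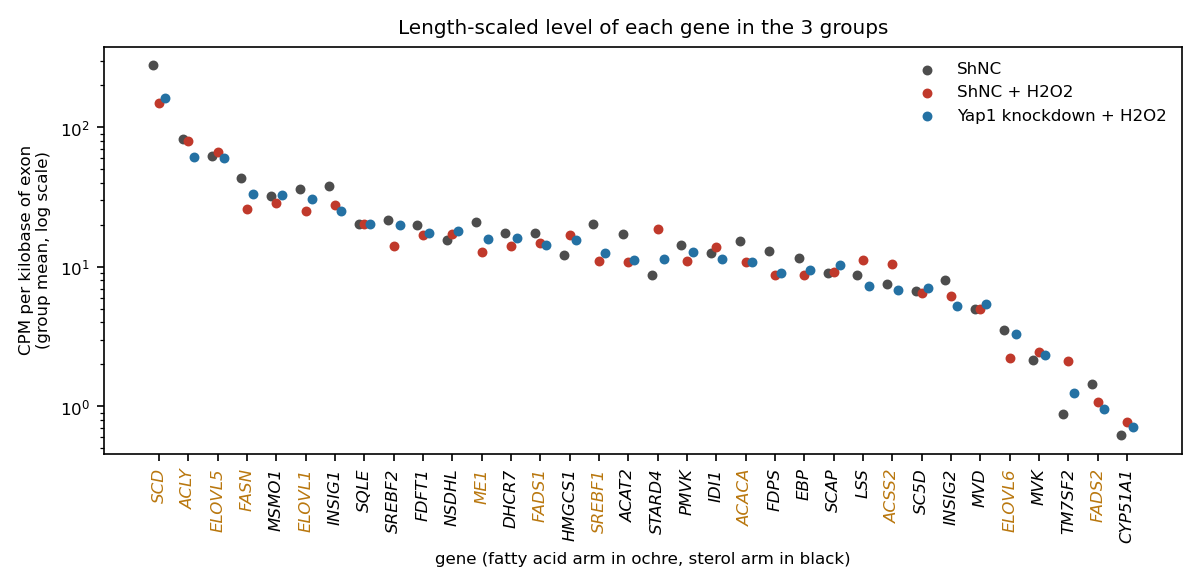
Group mean level in CPM per kilobase of exon (log y axis) of the 34 genes, ordered by their mean over all libraries, with fatty acid arm names in ochre and sterol arm names in black. Points are group means (n = 4, no error shown). SCD, at 196.5 CPM per kilobase over all libraries, stands above all other members, and CYP51A1 is lowest.

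The promoter windows were searched on both strands for 3 motifs known from SREBP target genes. A window was found for 30 of the 34 members, 41 windows in all, and none for ACAT2, SQLE, FDFT1 and FASN. TCACNCCAC, the sterol regulatory element core, was found for 1 of 30 members (SREBF2), in 2.44% of the members' windows and 1.13% of all 35116 windows. CACGTG, the E-box, was found for 5 of 30 (ELOVL5, INSIG1, LSS, SC5D and SCAP), in 14.6% of the members' windows and 7.26% of all. CCAAT, the NF-Y box, was found for 22 of 30, in 63.4% of the members' windows and 34.6% of all. Of the 4 windows printed, SREBF2 was chosen by its sterol regulatory element core, and the other 3 were chosen after the matches and values were known. A match is a description of letters and not of binding, and a window without an exact match may still hold a site that differs in letters.

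Other genes of the pathway were taken from 6 lists. Over all genes tested, 23.9% were called higher and 22.6% lower with peroxide (46.6% in all), and 22% higher and 21% lower between the peroxide groups (43% in all). Among 12 other genes of sterol and isoprenoid synthesis 3 fell with peroxide and the other 9 were not called, and 5 rose and 1 fell between the peroxide groups. The shares called, 25% and 50%, stand against 46.6% and 43% of all genes. PDSS1, which starts the ubiquinone side chain, differed by -0.95 and 0.59 (adjusted p = 1.4e-05 and 0.00138).

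Among 14 genes of SREBP processing and of the turnover of sterol sensors, 7 rose and 5 fell with peroxide (85.7% called, against 46.6% of all genes), and 3 rose and 5 fell between the peroxide groups (57.1%, against 43%). MBTPS1, the protease that makes the first cut of SREBP precursors, differed by -0.57 and 0.46 (adjusted p = 9.2e-07 and 1.3e-05), with neighbours' shifts of -0.46 and 0.38. UBE2G2 and MARCHF6, enzymes of sterol-driven protein degradation, differed by 0.70 and 0.60 with peroxide (adjusted p = 1.7e-08 and 1.4e-06) and by -0.62 and -0.37 between the peroxide groups (adjusted p = 9.8e-08 and 0.000212). The neighbours of UBE2G2 shifted by 0.49 and -0.56 in these comparisons and those of MARCHF6 by 0.27 and -0.30. ERLIN1 fell by 0.46 with peroxide (adjusted p = 8.1e-06).

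Of 14 tested genes of sterol uptake and efflux 5 rose and 4 fell with peroxide (64.3% called, against 46.6% of all genes), and 4 rose and 6 fell between the peroxide groups (71.4%, against 43%). LIPA, the lysosomal acid lipase that frees cholesterol and fatty acids from taken-up lipoproteins, went from 87.2 ± 14.2 to 269.0 ± 28.8 and 106.0 ± 7.82 CPM, differences of 1.63 and -1.34 (adjusted p = 5.1e-09 and 7.0e-08). NPC2, which hands lysosomal cholesterol to NPC1, differed by 0.82 and -0.76 (adjusted p = 1.2e-08 and 4.6e-08), with neighbours' shifts of 0.29 and -0.25. NPC1 itself went the other way, by -0.69 and 0.55 (adjusted p = 6.0e-08 and 1.0e-06). SCARB1, a lipoprotein receptor, differed by -0.61 and 0.54 (adjusted p = 7.1e-06 and 2.8e-05). ABCA1, a cholesterol exporter, fell by 0.78 between the peroxide groups (adjusted p = 3.3e-07), and APOE rose by 0.71 (adjusted p = 0.0103) where its neighbours shifted by -0.30.

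In the list of sterol esterification and lipid droplet genes, 2 of 12 rose and 4 fell with peroxide, and 4 rose and 2 fell between the peroxide groups. The share called was 50% in both, near the 46.6% and 43% of all genes. PLIN2, a coat protein of lipid droplets, went from 208.7 ± 5.71 to 86.3 ± 8.09 and 177.1 ± 18.3 CPM (differences -1.27 and 1.04, adjusted p = 3.1e-09 and 5.4e-08). SOAT1, which esterifies cholesterol, differed by -0.65 and 0.69 (adjusted p = 1.7e-06 and 1.2e-06), with neighbours' shifts of -0.39 and 0.35. PLIN4 differed by 1.95 and -1.01 (adjusted p = 9.6e-07 and 0.000512), with neighbours' shifts of 0.40 and -0.25, and PLIN3 fell by 0.47 between the peroxide groups (adjusted p = 0.0118), where its neighbours shifted by -0.31.

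Of 22 other genes of fatty acid synthesis and activation 5 rose and 13 fell with peroxide (22.7% and 59.1%, against 23.9% and 22.6% of all genes), and 6 rose and 7 fell between the peroxide groups (27.3% and 31.8%, against 22% and 21%). ELOVL2, an elongase of polyunsaturated chains, had the largest fall, from 22.2 ± 5.65 to 2.03 ± 0.26 CPM, and stood at 12.7 ± 2.32 CPM in Yap1 knockdown + H2O2 (differences -3.44 and 2.64, adjusted p = 5.9e-10 and 1.9e-08). HACD2, which works beside the elongases, differed by -0.92 and 0.45 (adjusted p = 3.6e-06 and 0.00293), with neighbours' shifts of -0.70 and 0.66. ACSL5, an acyl-CoA synthetase, differed by 0.66 and -0.50 (adjusted p = 3.0e-05 and 0.000455), and HSD17B12 rose by 0.61 with peroxide (adjusted p = 1.3e-06). ELOVL7 rose by 0.86 between the peroxide groups (adjusted p = 3.6e-07), and HACD1 and MLXIP each fell by 0.42 (adjusted p = 0.00103 and 7.7e-05).

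Of 16 genes of glycerolipid assembly, which use the fatty acids, 4 rose and 4 fell with peroxide, 25% each way and near the 23.9% and 22.6% of all genes. Between the peroxide groups 3 rose and 7 fell (18.8% and 43.8%, against 22% and 21%). AGPAT3 and GPAM, acyltransferases, differed by 0.63 and 0.34 with peroxide (adjusted p = 8.7e-07 and 0.000321) and both by -0.49 between the peroxide groups (adjusted p = 1.7e-05 and 1.4e-05). AGPAT3 lies on chromosome 21, where its neighbours shifted by 0.48 and -0.53. GPAT3 fell by 0.70 with peroxide (adjusted p = 9.3e-08), PNPLA3 differed by -0.47 and 0.36 (adjusted p = 0.000456 and 0.00416), and CHKA rose by 0.38 between the peroxide groups (adjusted p = 0.00062).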

How the data were processed

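The authors deposited 12 tables of whole-number read counts per gene, with Ensembl identifiers and no normalization. The submitters' processing notes name HISAT2, featureCounts of Subread, DESeq2 and GRCh38, with no versions. The use of strand is not given in the sources used here. Symbols, positions and exon overlaps came from tables of gene names and GENCODE release 29 (GRCh38).

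The counts were tested with edgeR 4.0.16 (R 4.3.3): filterByExpr, TMM, glmQLFit (robust) and glmQLFTest over all 12 libraries with 1 mean per group, and Benjamini-Hochberg adjustment over 19268 genes. Log2 fold changes carry standard errors from that test. A count of 3, taken as the floor, is 0.0644 to 0.0974 CPM. DESeq2 1.42.0, other scalings, each library left out, a replicate block and removal of the median shift of the 50 nearest expressed genes were alternatives. The test was also run on simulated counts, without outlying libraries or shifts shared by neighbouring genes. That check does not cover these features of the data.

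Libraries of 1 group differed by more than counting noise, and none was counted as a duplicate. The chi-square per degree of freedom between 2 libraries of a group was uneven. It was 95.8 to 159.3 for pairs with a library of high mitochondrial share and 2.85 to 6.39 for the other pairs. Replicate numbers did not pair libraries across groups: deviations of same-numbered libraries correlated from -0.222 to 0.103. The highest correlation across groups, 0.389, was between ShNC replicate 4 and Yap1 knockdown + H2O2 replicate 3, the 2 libraries of high mitochondrial share.

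Values in every library are given for the regulators and, in each arm and each of the first 2 comparisons, for the called members that moved most, at most 5 each way, where the mean reached 5 CPM. Up to 2 called genes each way were named from each related list. Some genes of these lists are not reported here. Members, lists and motifs were chosen with earlier results of these data known. The markers SLC22A6, EMCN and ADIPOQ were not analysed here.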

Additional observations from a re-analysis of the deposited data

Results flagged for a closer look

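In 14 of 102 sets of 4 libraries (34 genes in 3 groups) 1 library lay far from the other 3 by Dixon's criterion at the 95% level. Chance flags about 1 in 20 such sets. ShNC replicate 4, a library of high mitochondrial share, was the distant library in 5 sets. It was low for PMVK (10.6 CPM against 20.3 to 22.1), FDPS (38.8 against 50.8 to 51.9), LSS (47.0 against 66.7 to 69.4) and FASN (320.4 against 434.0 to 439.8), and high for SC5D (48.6 against 33.6 to 34.5). Yap1 knockdown + H2O2 replicate 3, the other such library, was distant in 6 sets. It was low for MVD (22.3 CPM against 26.6 to 27.0), CYP51A1 (1.32 against 2.85 to 3.12) and ME1 (47.2 against 55.8 to 56.3). The same library was high for NSDHL (41.1 against 34.5 to 34.9), SCAP (73.9 against 62.4 to 63.7) and FADS2 (15.6 against 8.75 to 9.44). ShNC replicate 3 was high for NSDHL (31.9 against 30.9 to 31.0) and ACACA (213.0 against 196.3 to 197.7), and ShNC + H2O2 replicate 3 was high for ACAT2 (49.0 against 45.2 to 45.7).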

How the results depend on the processing

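Of 34 members, 22, 20 and 21 had the same call (higher, lower or not called) under all 21 alternatives in the peroxide comparison, the comparison of the peroxide groups and the comparison with untreated ShNC. Of the 12, 22 and 16 members not called there, 6, 8 and 6 changed sign (at 2 decimals) in at least 1 alternative, PMVK among them with the neighbours' shift removed (0.30 with peroxide and -0.37 between the peroxide groups). Values also reversed with that shift removed for FDPS (0.04 and -0.50) and LSS (-0.07). MVD with peroxide went from 0.00 (adjusted p = 0.984) to -0.16 (adjusted p = 0.0194) without both libraries of high mitochondrial share. The cause was not tested.

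With library sizes alone, fatty acid genes higher with peroxide numbered 2 in place of 1, and sterol genes higher between the peroxide groups 1 in place of 2. The latter count was also 1 with no filter on low counts and with the neighbours' shift removed. Without both libraries of high mitochondrial share, fatty acid genes higher with peroxide numbered 2. Between the peroxide groups sterol genes higher numbered 6 and fatty acid genes lower 5, and against untreated ShNC sterol genes higher numbered 5 and lower 11. Calls over all genes then rose to 11603, 11194 and 9146 in the 3 comparisons, from 8971, 8288 and 6265. With each library left out in turn, sterol genes higher between the peroxide groups ranged from 1 to 4 (4 without ShNC replicate 4, and 1 without ShNC replicate 1 or 3, ShNC + H2O2 replicate 1, 2 or 3, or Yap1 knockdown + H2O2 replicate 1), and sterol genes lower than in untreated ShNC from 5 to 10 (10 without ShNC replicate 4). Calls over all genes then ranged from 7196 to 9684 between the peroxide groups and from 5346 to 7298 against untreated ShNC. With the replicate number as a block, 8536, 7798 and 5731 genes were called in place of 8971, 8288 and 6265, and among members only INSIG2 with peroxide lost its call (adjusted p = 0.055).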
